A study of Mus musculus with 7 samples.

Results

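The genes of the Wnt signalling pathway named Wnt, Fzd, Dkk and Sfrp with a number, together with Lrp5, Lrp6, Axin1 and Axin2, were followed in maps of 5-formylcytosine (5fC) in mouse embryonic stem (ES) cells. They were taken by symbol from the GENCODE M1 annotation of the mouse genome build mm9, on the autosomes only, and came to 41 of 21418 protein-coding genes. Of the 41 members, 19 were Wnt ligands, 10 Frizzled receptors, 2 co-receptors, 8 secreted antagonists and 2 scaffolds of the destruction complex. The maps covered 3 conditions of the J1 line (129S4/SvJae), with 2 biological replicates of each. TDG KD cells were transfected with a pool of siRNAs against Tdg, the gene for thymine DNA glycosylase. In the siRNA control, cells were transfected with a non-targeting siRNA. WT cells were untransfected. Both sets of transfected cells were kept without feeders, whereas WT cells grew on irradiated mouse embryonic fibroblasts, so the feeder layer and the transfection cannot be told apart in any comparison with WT. A single genomic input library was the background of all 6 pulldown libraries.

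Wnt proteins are secreted, lipid-modified ligands that bind the extracellular domain of Frizzled receptors and the co-receptors Lrp5 and Lrp6. Binding stops the destruction complex, which is built on the Axin scaffolds, from marking beta-catenin for degradation, and beta-catenin then works with TCF and LEF factors at target genes. In mouse ES cells Wnt signalling is known to sustain self-renewal and to take part in the exit towards mesoderm. 5fC is formed from 5-methylcytosine by TET enzymes through 5-hydroxymethylcytosine, and TDG removes it during base excision repair. CpG dinucleotides are the usual site of these bases in mammals, and dense stretches of them form the CpG islands (CGIs) of many promoters.

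The start of 6 member genes is printed here from the mm9 sequence because the maps separate them, and most of the 6 are rich in CpG. Each run holds 200 bases, 150 before the transcription start site (TSS) and 50 from it, written 5′ to 3′ on the strand of the gene, with CpG dinucleotides in capitals. Enriched domains covered 50% or more of the surrounding TSS window in all 6 libraries at Wnt3a and Wnt7a, in 5 at Fzd7, in 4 at Fzd1 and in none at Lrp6 and Dkk1.
Wnt3a (chr11:59104205-59104404, minus strand): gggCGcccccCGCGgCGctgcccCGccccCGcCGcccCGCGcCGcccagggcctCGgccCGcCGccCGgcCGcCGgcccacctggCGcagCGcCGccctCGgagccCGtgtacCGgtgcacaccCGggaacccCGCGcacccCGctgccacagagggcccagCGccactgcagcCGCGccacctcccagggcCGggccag
Wnt7a (chr6:91361308-91361507, minus strand): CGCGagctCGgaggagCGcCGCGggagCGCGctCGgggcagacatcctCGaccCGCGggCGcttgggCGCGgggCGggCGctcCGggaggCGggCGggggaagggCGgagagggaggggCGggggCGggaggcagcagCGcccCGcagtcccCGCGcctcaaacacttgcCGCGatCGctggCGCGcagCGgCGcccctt
Fzd7 (chr1:59538841-59539040, plus strand): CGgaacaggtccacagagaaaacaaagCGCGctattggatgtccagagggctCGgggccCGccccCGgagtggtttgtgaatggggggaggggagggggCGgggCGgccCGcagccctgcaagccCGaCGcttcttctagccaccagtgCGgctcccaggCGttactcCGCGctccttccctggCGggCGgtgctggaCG
Fzd1 (chr5:4758167-4758366, minus strand): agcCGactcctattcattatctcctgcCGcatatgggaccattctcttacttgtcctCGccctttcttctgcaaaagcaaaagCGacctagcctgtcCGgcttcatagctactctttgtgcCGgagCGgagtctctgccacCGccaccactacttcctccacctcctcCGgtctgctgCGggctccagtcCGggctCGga
Lrp6 (chr6:134516934-134517133, minus strand): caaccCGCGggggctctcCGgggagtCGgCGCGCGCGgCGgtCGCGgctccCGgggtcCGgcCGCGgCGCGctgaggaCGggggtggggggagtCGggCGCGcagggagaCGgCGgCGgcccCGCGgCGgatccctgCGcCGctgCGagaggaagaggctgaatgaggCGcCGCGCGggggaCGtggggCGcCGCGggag
Dkk1 (chr19:30624106-30624305, minus strand): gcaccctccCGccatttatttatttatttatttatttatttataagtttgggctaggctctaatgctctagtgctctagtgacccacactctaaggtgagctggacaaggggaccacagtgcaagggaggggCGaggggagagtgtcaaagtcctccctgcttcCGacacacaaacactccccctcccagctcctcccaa
The Lrp6 run held 38 CpGs, more than the 34 of Wnt7a and the 30 of Wnt3a. Fzd7 had 18, Fzd1 12 and Dkk1 3.

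Depth was 20.4 and 28.7 M uniquely placed reads in TDG KD, 29.2 and 28.8 M in the siRNA control, and 45.9 and 27.4 M in WT, against 26.5 M for the input. The files give domains, stretches of the genome that the domain caller set to enriched, background or unconfident, each with a value that carries no label. From its size, this value was taken as the pulldown reads minus the input reads averaged over the domain's bins of 100 bp. Levels are given below as excess, which is that value minus the mean of the library, per kb and per M reads, and 0 is therefore the library mean. A rise or fall of 5fC in the whole genome does not show on this scale. The median width of an enriched domain differed from 700 bp in WT replicate 1 to 24550 bp in siRNA control replicate 2, so a site shares its value with more or less of its surroundings. TDG KD replicate 1 stood apart, with 504.9 Mb called unconfident against at most 6.296 Mb elsewhere. Replicates 1 of TDG KD and control have library names with the prefix BHAM and replicates 2 the prefix EAR, and the comparison was also made within each prefix. The files hold no expression values, so neither the knockdown of Tdg nor the identity of the cells was checked in them.

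The TSS window of a gene, 1 kb on either side of its TSS, was called enriched where at least 50% of its length lay in enriched domains. In TDG KD, 12 of 41 members (29.3%) were enriched in both replicates, against 15.1% of the 21164 genes with a value in all 6 libraries. In the siRNA control the count was 26 of 41 (63.4%), against 34.7% of all genes, and in WT it was 28 of 41 (68.3%), against 39.1%. Wnt5b and Sfrp4 just missed the WT count, with 1000 of 2001 bases enriched in replicate 1 and an enriched window in replicate 2. Fzd1 also just missed it, with an enriched window in replicate 1 and 985 of 2001 bases in replicate 2. The shares of the members were thus above the background in every condition. TDG KD replicate 1 set the count of its condition: it had 12 enriched members (16% of all genes), while replicate 2 had 35 (55.7% of all genes). In replicate 1, 21 of the 41 windows were mostly unconfident, against 34% of all genes, and in any other library 0 of the 41 were. In the single libraries of the other conditions 30 to 33 members were enriched, against 41.5% to 52.9% of all genes. Over all 6 libraries, 8 members (19.5%) were enriched in each, against 11% of all genes, and 3 members (7.32%) in none, against 28.8%.

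**Figure D1:**
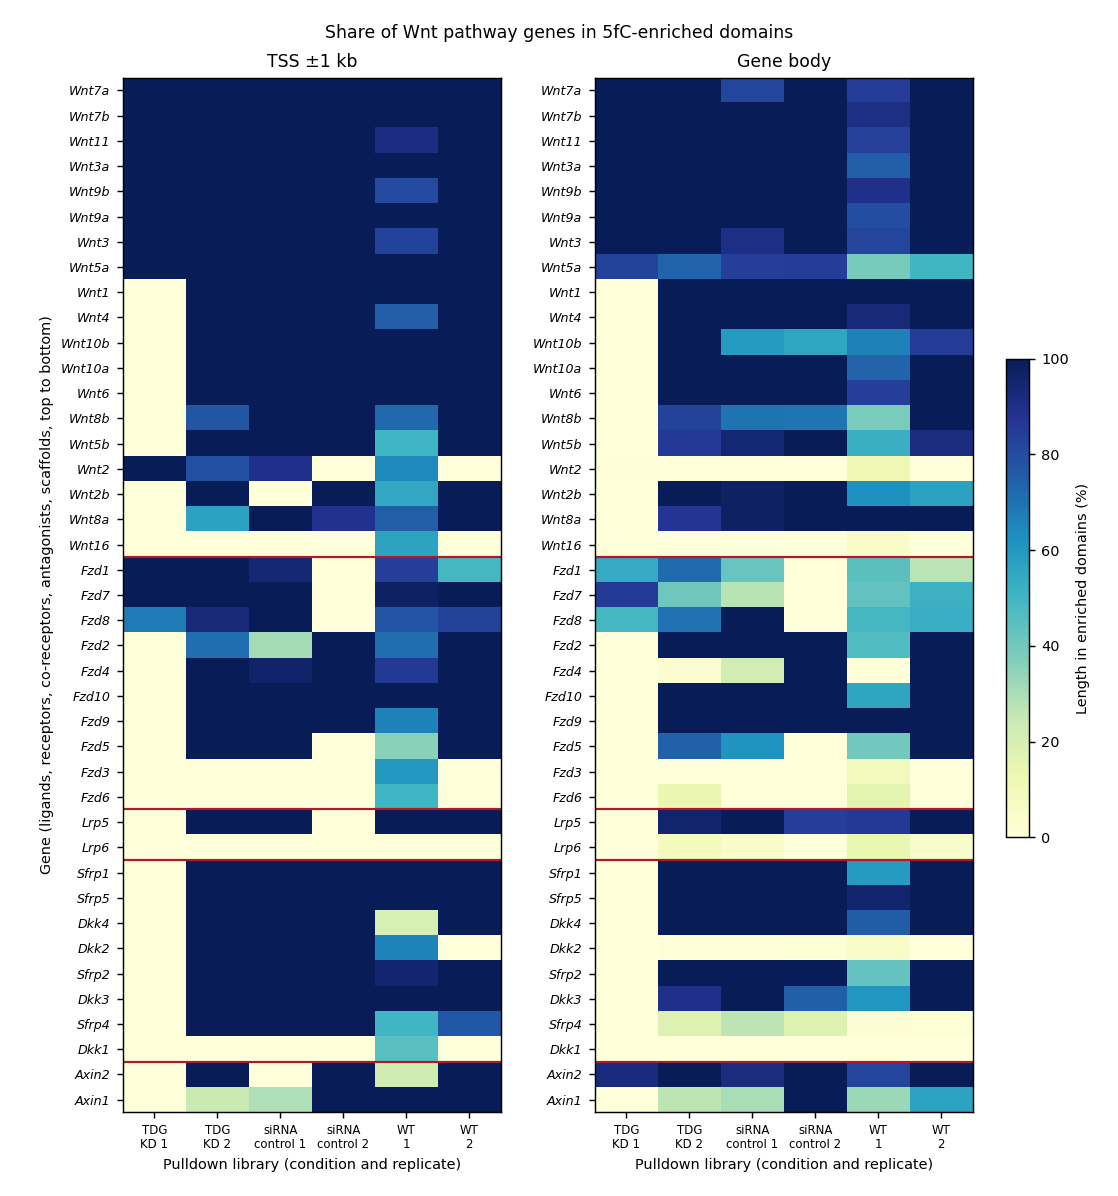
Share of the TSS window (left) and of the gene body (right) of each of the 41 members that lay in enriched domains, in percent by colour, in each of the 6 libraries. Members run down the page by role, split by red lines, and within a role by the mean rank of their TSS level. Most ligand rows are dark outside TDG KD replicate 1, where 12 TSS windows were enriched, and Lrp6, Dkk1 and Fzd6 reach the 50% threshold in no library.

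The level at the TSS was also above that of most genes, though TDG KD was not the lowest condition by this measure. The median excess over the members was 0.102 and 0.26 in TDG KD replicates 1 and 2, 0.182 and 0.0828 in siRNA control replicates 1 and 2, and 0.413 and 0.226 in WT replicates 1 and 2. Over all genes the medians were 0.0115 and 0.154 in TDG KD, 0.0165 and 0.00212 in the siRNA control, and 0.231 and 0.0587 in WT. Within a library, the median member stood between the 72.5th and the 80.6th percentile of all genes. The mean of the 2 library medians was 0.181 ± 0.112 in TDG KD, 0.133 ± 0.0704 in the siRNA control and 0.319 ± 0.132 in WT (SD, n = 2 each), and the TDG KD and control libraries overlapped.

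Ligands were the largest group among the enriched members. In TDG KD 9 of 19 ligands (47.4%) were enriched at the TSS in both replicates, against 15.1% of all genes. The count was 16 of 19 (84.2%) in the siRNA control, against 34.7% of all genes, and 16 of 19 in WT, against 39.1%. All 8 members that were enriched in every library were ligands: Wnt7a, Wnt7b, Wnt11, Wnt3a, Wnt9a, Wnt9b, Wnt3 and Wnt5a. Wnt3a, a ligand of the beta-catenin branch and a common supplement of ES cell cultures, had an excess of 0.191 and 0.291 in TDG KD, 0.188 and 0.126 in the siRNA control, and 0.525 and 0.226 in WT. Wnt7a, which acts in limb and neural patterning, had 0.189 and 0.287 in TDG KD, 0.182 and 0.142 in the siRNA control, and 0.547 and 0.246 in WT. Wnt7b, a ligand with roles in lung and placenta, had 0.177 and 0.311 in TDG KD, 0.171 and 0.102 in the siRNA control, and 0.535 and 0.289 in WT. In these 3 genes the siRNA control libraries were the lowest, below both libraries of the other conditions.

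Wnt5a, which signals mainly without beta-catenin, had an excess of 0.173 and 0.257 in TDG KD, 0.195 and 0.115 in the siRNA control, and 0.411 and 0.285 in WT. Wnt11, another ligand of the non-canonical branch, had 0.172 and 0.26 in TDG KD, 0.206 and 0.11 in the siRNA control, and 0.548 and 0.266 in WT. The TDG KD and control libraries of both genes overlapped, and both WT libraries lay above them. The domain at the Wnt5a TSS was between 3.7 and 27.8 kb wide over the libraries, while that at Wnt11 reached 177.9 kb.

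Several ligands shared a domain with a neighbour and so are not separate measurements. Wnt3a and Wnt9a, on chromosome 11, lay in 1 enriched domain in 5 of the 6 libraries, all but WT replicate 1, and it was 475.2 and 204.7 kb wide in TDG KD, 199.7 and 624.6 kb in the siRNA control, and 207.3 kb in WT replicate 2. Wnt9a therefore had the same values as Wnt3a, apart from 0.468 in WT replicate 1. Wnt3, needed for the primitive streak in the mouse, and Wnt9b shared a domain of 94.6 to 201.2 kb in the same 5 libraries. Their excess was 0.152 and 0.322 in TDG KD and 0.233 and 0.136 in the siRNA control. In WT it was 0.312 and 0.246 for Wnt3 and 0.361 and 0.246 for Wnt9b.

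Wnt6 and Wnt10a, neighbours on chromosome 1, shared an enriched domain of 52.2 to 185.7 kb in TDG KD replicate 2, both siRNA control libraries and WT replicate 2. At both genes the excess was 0.0926 and 0.269 in TDG KD and 0.162 and 0.0568 in the siRNA control, while in WT it was 0.464 and 0.189 for Wnt6 and 0.482 and 0.189 for Wnt10a. Wnt1, which patterns the midbrain, and Wnt10b, neighbours on chromosome 15, shared a domain of 96.8 to 178.9 kb in both control libraries and WT replicate 2. Wnt1 had 0.107 and 0.337 in TDG KD, 0.184 and 0.0905 in the siRNA control, and 0.56 and 0.236 in WT. Wnt10b had 0.107 and 0.24 in TDG KD, 0.184 and 0.0905 in the siRNA control, and 0.614 and 0.236 in WT. With neighbours that shared their domains counted once, the members enriched in both replicates came to 10 in TDG KD, 22 in the siRNA control and 28 in WT, where the narrow domains of replicate 1 separated every pair. This count was added after the shared domains were seen. It has no share of all genes counted in the same way beside it, so it cannot be set against the background.

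Of the other ligands, Wnt4, which acts in kidney and gonad, Wnt5b and Wnt8b were enriched in 4 or 5 libraries. Wnt2b was enriched in 4, with an excess of 0.0946 and 0.162 in TDG KD, -0.0693 and 0.0355 in the siRNA control, and 0.413 and 0.266 in WT. Wnt16 was the ligand with the least 5fC. It had -0.0525 and -0.0311 in TDG KD, -0.0369 and -0.0255 in the siRNA control, and 0.261 and -0.0184 in WT, and only WT replicate 1 passed the 50% threshold, with 1127 of 2001 bases enriched.

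Of the 10 Frizzled genes, 3 (30%) were enriched at the TSS in both replicates of TDG KD, against 15.1% of all genes and 18.2% of those with a CGI. In the siRNA control 3 were (30%), against 34.7% and 37.6%, and in WT 6 were (60%), against 39.1% and 46.8%. These shares rest on 10 genes, and whether they differ from the background was not tested. No receptor was enriched in all 6 libraries. The single libraries had 3 and 8 enriched receptor windows in TDG KD, 7 and 4 in the siRNA control, and 8 and 7 in WT. The 6 receptors whose coding transcript is 1 exon (Fzd1, Fzd2, Fzd7, Fzd8, Fzd9 and Fzd10) were enriched in 4 or 5 libraries each. Those with several exons ranged from 5 libraries for Fzd4 and 3 for Fzd5 to 1 for Fzd3 and 0 for Fzd6.

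Fzd1 had an excess of 0.575 and 0.551 in TDG KD, 0.408 and -0.022 in the siRNA control, and 0.55 and 0.247 in WT. In WT replicate 2, 985 of the 2001 bases of its window were enriched, just under the threshold. Fzd8 had 0.421 and 0.449 in TDG KD, 0.218 and -0.0364 in the siRNA control, and 0.542 and 0.33 in WT. Fzd7, the most studied Frizzled receptor of pluripotent cells, had 0.177 and 0.447 in TDG KD, 0.0858 and 0.0237 in the siRNA control, and 0.779 and 0.347 in WT. At all 3 genes both TDG KD libraries lay above both control libraries, and control replicate 2, where the TSS lay in a background domain of 93.0 kb at Fzd7, 1393.2 kb at Fzd1 and 2900.1 kb at Fzd8, was the lowest. TDG KD replicate 1 had domains of 14.3, 4.2 and 2.5 kb at the same genes.

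Fzd6 and Fzd3, which take part in planar cell polarity, were at most 0.0205 above the library mean outside WT replicate 1. In siRNA control replicate 2, Fzd6 stood at the 3.1th percentile of all genes. Fzd6 had -0.0142 and -0.0114 in TDG KD, -0.0152 and -0.0574 in the siRNA control, and 0.177 and -0.0437 in WT, where replicate 1 had 1000 of 2001 bases enriched. Fzd3 had -0.0214 and -0.0157 in TDG KD, 0.0205 and -0.0279 in the siRNA control, and 0.237 and -0.00125 in WT. The 2 WT libraries thus disagreed at both genes by more than any pair of the siRNA libraries did.

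The co-receptors differed from each other. Lrp5 was enriched in 4 libraries and had an excess of 0.0767 and 0.238 in TDG KD, 0.19 and -0.0114 in the siRNA control, and 0.379 and 0.267 in WT. Lrp6, which acts in the same complex, was enriched in none and had -0.00383 and -0.0708 in TDG KD, -0.0348 and -0.0244 in the siRNA control, and -0.0668 and -0.0452 in WT. All 6 Lrp6 values were below the library mean, and its TSS window had the highest ratio of observed to expected CpG of the members, 0.98. Of all genes with a ratio of 0.8 or above, 45% were enriched at the TSS in at most 1 library.

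No antagonist was enriched at the TSS in both TDG KD replicates, since 0 of 8 were enriched in replicate 1, where 5 windows were mostly unconfident, and 7 of 8 in replicate 2. The TDG KD share over all genes was 15.1%, and 34% of all genes were mostly unconfident in replicate 1. In the siRNA control 7 of 8 (87.5%) were enriched in both replicates, against 34.7% of all genes, and in WT 4 of 8 (50%), against 39.1%. These shares rest on 8 genes and were not tested against the background either. Sfrp4 just missed the WT count, with 1000 of 2001 bases enriched in replicate 1. Several Dkk proteins bind Lrp5 and Lrp6, and Sfrp proteins resemble the Wnt-binding domain of Frizzled. Dkk1, itself a target of Wnt signalling, was enriched in none, with -0.0434 and -0.0716 in TDG KD, -0.0482 and -0.0264 in the siRNA control, and 0.223 and -0.0646 in WT. Its TSS lay in background domains of 604.6 to 2045.9 kb in 5 libraries and in an enriched domain of 0.9 kb in WT replicate 1, which covered 900 of the 2001 bases of the window.

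Dkk2 had an excess of -0.0242 and 0.394 in TDG KD, 0.282 and 0.24 in the siRNA control, and 0.224 and -0.0572 in WT. Sfrp4 had -0.0994 and 0.219 in TDG KD, 0.0834 and 0.101 in the siRNA control, and 0.35 and 0.388 in WT. Both genes had a narrow enriched domain at the TSS, of 4.0 to 4.3 kb for Dkk2 and 4.4 to 6.7 kb for Sfrp4, in TDG KD replicate 2 and the control libraries. Sfrp1 and Dkk4 lie on chromosome 8, whose background domains averaged -0.000669 and -0.0463 in TDG KD, -0.0181 and 0.0172 in the siRNA control, and -0.118 and -0.058 in WT. Sfrp1 was enriched in 5 libraries and Dkk4 in 4, and the part of this shift in their values is given with the comparisons.

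Axin2, a negative regulator and a widely used target gene of beta-catenin, had an excess at the TSS of 0.159 and 0.274 in TDG KD, 0.0665 and 0.123 in the siRNA control, and 0.123 and 0.251 in WT. Axin1, the constitutive scaffold, had 0.0966 and 0.0458 in TDG KD, 0.0607 and 0.0887 in the siRNA control, and 0.505 and 0.255 in WT. Each was enriched in 3 libraries. At Axin2 both TDG KD libraries lay above both control libraries, and at Axin1 they overlapped.

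**Figure D2:**
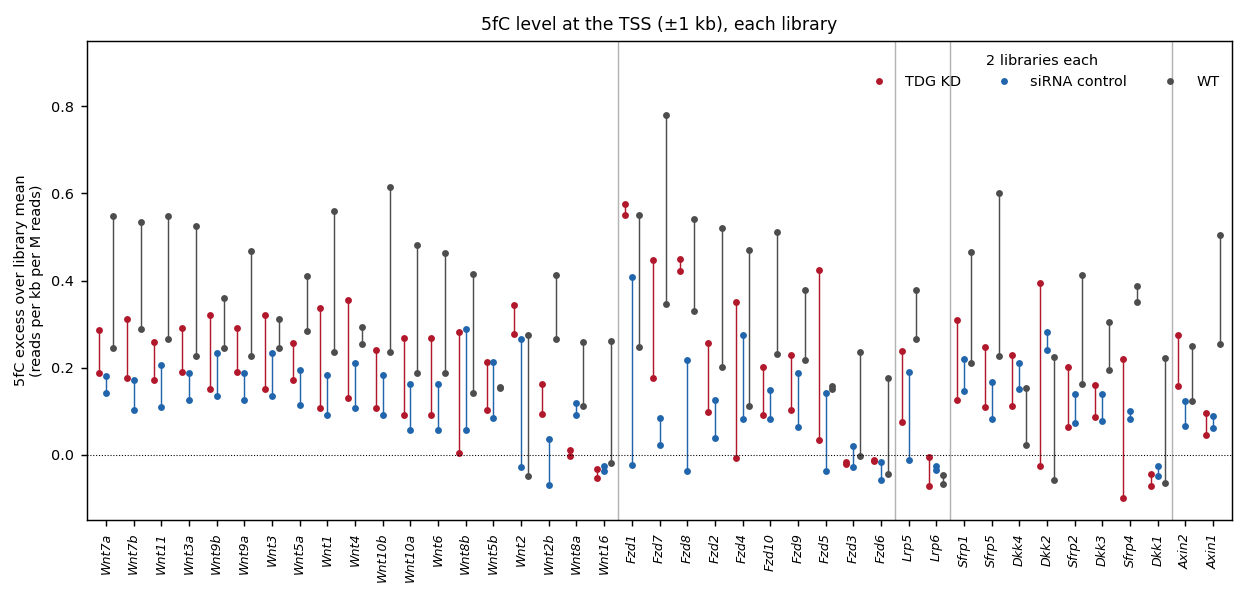
5fC excess over the library mean at the TSS window (vertical axis, reads per kb per M reads) of the 41 members (horizontal axis, by role), with 1 point per library and a line joining the 2 replicates of TDG KD (red), siRNA control (blue) and WT (grey). Fzd1, Fzd8 and Fzd7 have both TDG KD libraries above both control libraries, and all points of Lrp6 lie below 0.

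The gene body was taken from 1 kb inside the gene to its end. In TDG KD 10 of 41 members were enriched there in both replicates, against 15.8% of all genes, in the siRNA control 27, against 40.9%, and in WT 23, against 37.8%. The TSS window and the gene body often lay in the same domain and then had the same value, and the median difference between them over the members was 0 in 5 libraries and 0.154 in WT replicate 1, the library with the narrow domains, against 0.0595 over all genes there. Sfrp4, Dkk2 and Fzd4 had the largest mean difference over the libraries, 0.228, 0.221 and 0.217. At Sfrp4 the gene body had an excess of -0.0994 and -0.0312 in TDG KD, -0.0271 and -0.00707 in the siRNA control, and -0.0917 and -0.0668 in WT, all below the library mean. Dkk2, which spans 95002 bp, had -0.0242 and -0.0632 in TDG KD, -0.0404 and -0.0142 in the siRNA control, and -0.068 and -0.0572 in WT. Neither gene body reached the 50% threshold in any library, although up to 26.6% of that of Sfrp4 lay in enriched domains, in siRNA control replicate 1. In TDG KD replicate 1 at both genes, and in WT replicate 2 at Dkk2, the TSS lay in the same background domain as the gene body. Fzd4 was less regular. Its gene body had -0.00596 and -0.00775 in TDG KD, -0.107 and 0.0814 in the siRNA control, and -0.0943 and 0.112 in WT. Its TSS had -0.00596 and 0.351 in TDG KD, 0.275 and 0.0814 in the siRNA control, and 0.469 and 0.112 in WT, so the regions shared 1 value in TDG KD replicate 1, control replicate 2 and WT replicate 2.

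Axin2, Wnt8a and Fzd9 had the lowest mean difference, -0.068, -0.0585 and -0.0407. In the Axin2 gene body the excess was 0.23 and 0.274 in TDG KD, 0.227 and 0.123 in the siRNA control, and 0.299 and 0.251 in WT, and this gene body was enriched in all 6 libraries. Axin2 was thereby the only member outside the ligands with an enriched gene body in every library. At Wnt8a, a ligand of early mesoderm, the gene body had -0.00136 and 0.17 in TDG KD, 0.117 and 0.107 in the siRNA control, and 0.438 and 0.113 in WT. The single-exon gene Fzd9 had 0.102 and 0.229 in TDG KD, 0.187 and 0.0651 in the siRNA control, and 0.622 and 0.217 in WT, and its TSS window differed from this in WT replicate 1 alone, where it had 0.378.

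The median width of the domains was larger at ligands than at receptors, although the widths overlapped. At TSSs that lay in an enriched domain the median width of that domain was 149 and 76.5 kb for ligands against 4.2 and 6.35 kb for receptors in TDG KD, 94.6 and 186 kb against 12.1 and 98 kb in the siRNA control, and 5.5 and 129 kb against 2.6 and 9.6 kb in WT. All genes had 207 and 30 kb in TDG KD, 55.6 and 140 kb in the siRNA control, and 1.9 and 50.5 kb in WT. The median was therefore narrower at receptors than at ligands in all 6 libraries, with 3 to 10 receptors behind each median. The ranges overlapped in each. In siRNA control replicate 2 they were 11.1 to 697.6 kb for ligands and 21.2 to 266.6 kb for receptors. Ligands that shared a domain each counted it. At 10 kb downstream of the TSS the enriched share was 42.1% of ligands and 0% of receptors in TDG KD replicate 1, and 84.2% and 30% in replicate 2. In the siRNA control it was 78.9% and 20% in replicate 1 and 89.5% and 40% in replicate 2, and in WT 68.4% and 30% in replicate 1 and 73.7% and 30% in replicate 2. Between 14.7% and 42.9% of all genes were enriched at that distance. Most receptor genes end before that point (Fzd9 spans 2293 bp), whereas most ligand genes reach past it. At 10 kb upstream the shares of ligands and receptors were 31.6% and 10%, then 63.2% and 30%, in TDG KD replicates 1 and 2. They were 63.2% and 30%, then 68.4% and 50%, in the siRNA control, and 57.9% and 40%, then 73.7% and 30%, in WT. Over all genes they were 13.9% to 39.7%. Whether ligands and receptors differ in this beyond chance was not tested.

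**Figure D3:**
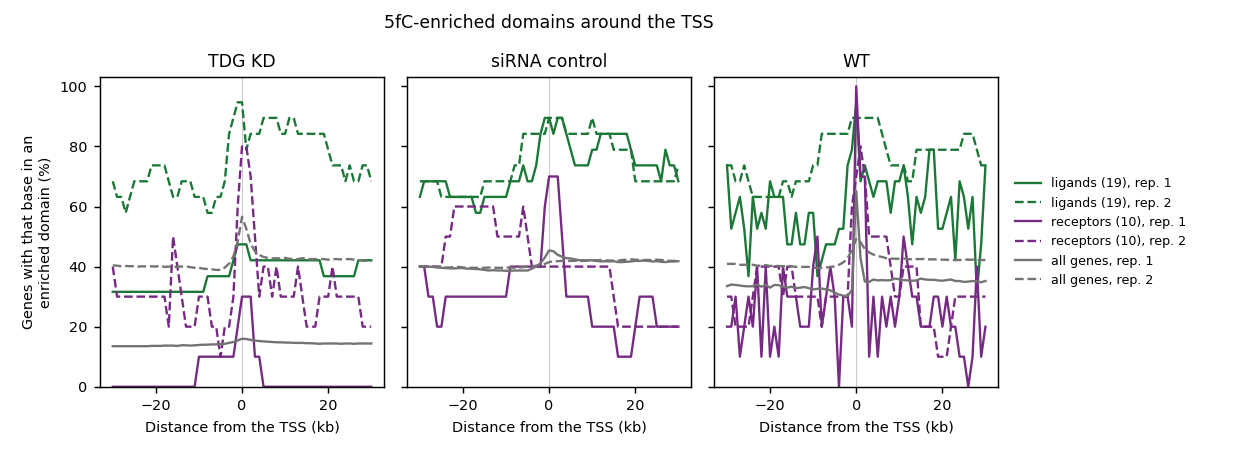
Share of genes (vertical axis, percent) whose base at a given distance from the TSS (horizontal axis, kb, downstream to the right) lay in an enriched domain, for the 19 ligands (green), the 10 receptors (purple) and all genes (grey), in TDG KD, siRNA control and WT, with replicate 1 as full and replicate 2 as dashed lines. At 10 kb downstream the ligand lines lie between 42.1% and 89.5% and the receptor lines between 0% and 40%, and with few genes behind them the lines move in steps.

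The windows were also compared in sequence, which the choice of genes did not use. A CGI of at least 500 bp was found in the TSS window of 35 of 41 members (85.4%), against 55.2% of all genes. All 10 receptors had one, as did 15 of 19 ligands and 6 of 8 antagonists. The median number of CpGs in the window was 148 for receptors, 110 for ligands and 73 for antagonists, against 62 for all genes. Among genes with a CGI, the share enriched at the TSS in both replicates was 34.3% of members against 18.2% of all in TDG KD, 62.9% against 37.6% in the siRNA control, and 71.4% against 46.8% in WT. The members were thus enriched more often than other CGI genes as well. Of the 6 members without a CGI (Wnt10a, Wnt16, Wnt8a, Wnt8b, Dkk4 and Dkk1), 0 were enriched in both replicates of TDG KD, 4 in the siRNA control and 3 in WT, against 11.2%, 30.9% and 29.4% of all genes without a CGI in the same conditions.

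The number of enriched libraries showed no steady order with the CpG ratio among the members. It averaged 4.75 for the 4 members with a ratio under 0.4, 3.78 for the 9 from 0.4 to under 0.6, 4.67 for the 18 from 0.6 to under 0.8 and 3.80 for the 10 at 0.8 or above. The last group held both Wnt9a, enriched in all 6 libraries, and Lrp6 and Fzd3, enriched in 0 and 1. Over all genes the averages were 2.13, 3.26, 2.96 and 2.19 in the same order of ratio. The letters CTTTGAT, a core site of TCF and LEF factors, were found on either strand in the TSS window of 11 members (26.8%) and of 23.9% of all genes. Axin2 had 2 matches, Lrp6 1 and Dkk1 2, and none of the 10 receptors had any.

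**Figure D4:**
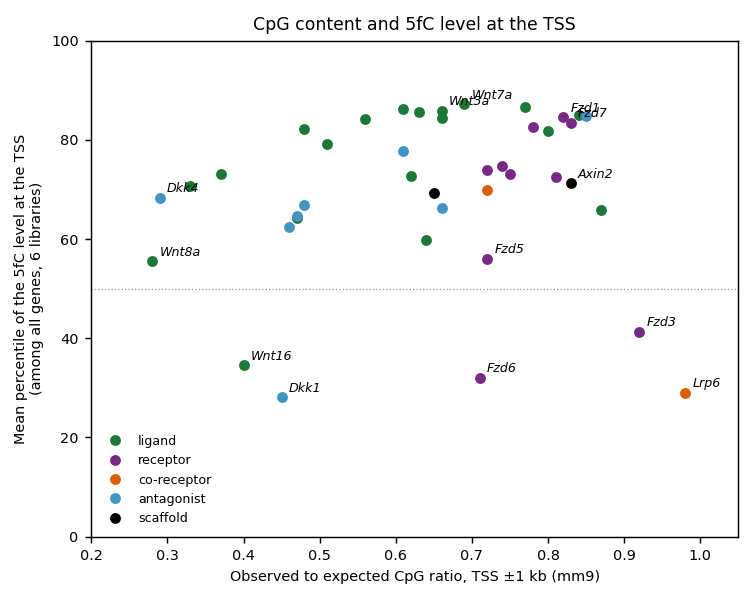
Mean percentile of the 5fC level at the TSS among all genes over the 6 libraries (vertical axis) against the ratio of observed to expected CpG in the TSS window (horizontal axis) for the 41 members, coloured by role. Most members lie above the dotted line at the 50th percentile, and Lrp6, with the highest ratio, 0.98, lies at 29.0.

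The comparison of TDG KD with the siRNA control asks where 5fC changes when its removal by TDG is reduced. With limma over all genes and Benjamini-Hochberg adjustment, 0 of 41 members and 0 of 21175 genes (0%) passed an adjusted p of 0.05 at the TSS, and 0 of 18588 (0%) in the gene body. At an unadjusted limma p under 0.05 there were 391 genes at the TSS and 205 in the gene body, in each region a share below 0.05 of the genes tested. An exact permutation test of 2 against 2 libraries cannot go below 0.33 two-sided. The medians of the difference over the members were 0.0523 at the TSS and 0.0395 in the gene body, against 0.0226 and 0.0104 over all genes. At the TSS, both TDG KD libraries lay above both control libraries in 11 of 41 members (26.8%), against 11% of all genes, and below them in 1 (2.44%), against 12.7%. The 1 member below was Wnt8a, with -0.00136 and 0.0119 in TDG KD and 0.12 and 0.091 in the siRNA control. Some of the 11 members above cleared the control narrowly. Their lower TDG KD and higher control values were 0.191 and 0.188 at Wnt3a and Wnt9a, which shared a domain. They were 0.189 and 0.182 at Wnt7a, 0.177 and 0.171 at Wnt7b, and -0.0142 and -0.0152 at Fzd6.

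Fzd1 had the largest difference between TDG KD and the siRNA control, 0.37 ± 0.153 (SE, limma adjusted p = 0.979), with means of 0.563 ± 0.0176 in TDG KD and 0.193 ± 0.304 in the control (SD, n = 2 each). At Fzd8 the difference was 0.344 ± 0.0973 (SE), and limma gave an unadjusted p of 0.0218, the only one below 0.05 among the members at the TSS, and an adjusted p of 0.979. Fzd7 differed by 0.257 ± 0.104 and Wnt2, a ligand of lung development, by 0.192 ± 0.112 (SE, limma adjusted p = 0.979 for both). Wnt2 had 0.345 and 0.277 in TDG KD and 0.267 and -0.0284 in the control. In the gene body Fzd1 differed by 0.268 ± 0.0728 and Fzd7 by 0.118 ± 0.0359 (SE, limma adjusted p = 0.988 for both). None of these passed the test over all genes, although each had both TDG KD libraries above both control libraries.

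Within the prefixes the direction differed. Among the BHAM libraries 15 of 41 members were higher in TDG KD, and the median difference was -0.0576, whereas among the EAR libraries 36 were higher and the median was 0.154. Over all genes the medians were -0.0227 and 0.0997, so the shift between the prefixes was present beyond the members. In 14 members both prefixes gave the same sign, 12 of them higher and 2 lower in TDG KD. Among these 14, the 4 with the largest mean difference were Fzd1 (0.168 within BHAM and 0.573 within EAR), Fzd8 (0.203 and 0.485), Fzd7 (0.0912 and 0.424) and Wnt2 (0.0783 and 0.306). The 4 with the smallest were Wnt8a (-0.121 and -0.0791), Wnt16 (-0.0155 and -0.00564), Fzd6 (0.001 and 0.0459) and Wnt7a (0.00678 and 0.145). The other 27 members, among them Lrp5, Lrp6, Axin1 and Dkk1, changed sign between the prefixes.

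**Figure D5:**
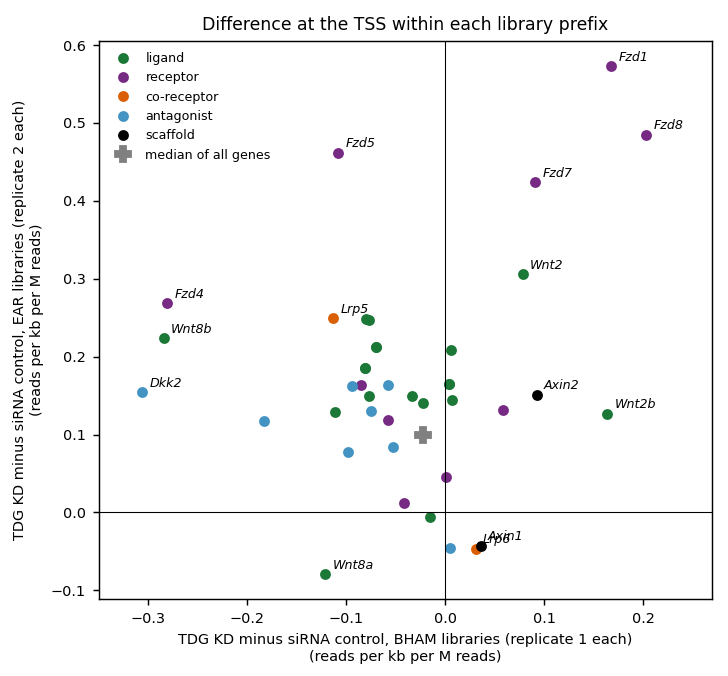
TDG KD minus siRNA control at the TSS (reads per kb per M reads) for each of the 41 members, within the BHAM libraries (horizontal axis) and within the EAR libraries (vertical axis), coloured by role, with the median of all genes as a grey cross. Fzd1, Fzd8, Fzd7 and Wnt2 lie at the upper right, higher in TDG KD within both prefixes, and most members lie at the upper left.

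Single libraries moved the differences here. Without TDG KD replicate 1, the median difference over all genes was 0.0752 at the TSS and 0.0382 in the gene body. Against the control, Fzd7 then differed by 0.393 and Fzd5 by 0.372 at the TSS, and 6 of the 41 members changed sign. Without TDG KD replicate 2, the medians over all genes were -0.0109 and -0.0145, and 18 members changed sign at the TSS. Calls from such fits assume the remaining library varies like the control libraries. Values without centring on the library mean turned the sign of 17 of the 41 members, and ranks within the library turned that of 12, while Fzd1, Fzd8, Fzd7 and Wnt2 kept theirs, with differences in rank of 32.4, 43.8, 38.4 and 27.2 percentiles. Without siRNA control replicate 2 the differences were 0.155 at Fzd1, 0.217 at Fzd8 and 0.0445 at Wnt2, each over 1.5 times smaller, and 0.226 at Fzd7.

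The siRNA control was also set against WT, with the same control libraries as above. Both WT libraries have the prefix BHAM, so no comparison within EAR was possible. No member was called by limma at the TSS (0% of 21164 genes) or in the gene body (0% of 18582), while 2365 genes at the TSS and 3030 in the gene body had an unadjusted p under 0.05. Both control libraries lay below both WT libraries at the TSS in 27 of 41 members (65.9%), against 44.2% of all genes, and above them in 2 (4.88%), Dkk2 and Lrp6, against 12.7%. The median difference was -0.182 over the members and -0.115 over all genes. Of the 41 members, 6 had an unadjusted limma p under 0.05 at the TSS, a share near that of all genes (2365 of 21164). All 6 were lower in the siRNA control: Fzd7, Wnt2b, Sfrp4, Wnt7b, Axin1 and Fzd8. Fzd7 differed most, by -0.508 ± 0.146 (SE, limma adjusted p = 0.391), with means of 0.0547 ± 0.0439 in the siRNA control and 0.563 ± 0.305 in WT (SD, n = 2 each). At Wnt2b the difference was -0.356 ± 0.0904 and at Axin1 -0.305 ± 0.104 (SE, limma adjusted p = 0.391 for both).

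Both WT replicates bore on this. With both, the median difference over all genes was -0.115 at the TSS and -0.061 in the gene body. Without WT replicate 2 these medians were -0.186 and -0.0847. Without WT replicate 1, which has the narrow domains, they were -0.0233 and -0.0321, and Dkk2 was higher in the control at the TSS by 0.318. Ranks within the library, which take out the scale of each library, turned the sign of 15 members. On chromosome 8, Sfrp1 differed by -0.153 from the library mean and by -0.241 over the background of its own chromosome, a zero added after the data were seen, and Dkk4 by 0.0936 and by 0.0061.

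The other genes of the pathway, 58 in a list of signal transducers, regulators and targets, mostly had a CGI as well (50 of 58, 86.2%). In TDG KD 11 of 58 (19%) had an enriched TSS window in both replicates, against 15.1% of all genes and 18.2% of those with a CGI. In the siRNA control 28 (48.3%) had one, against 34.7% and 37.6%, and in WT 35 (60.3%), against 39.1% and 46.8%. The TDG KD share was thus near the background. Ctnnb1, the gene of beta-catenin, was enriched in 0 libraries, with -0.0547 and -0.0344 in TDG KD, -0.0293 and 0.00902 in the siRNA control, and -0.0272 and -0.0399 in WT. Frzb, a secreted antagonist of the Sfrp kind, was enriched in 4 libraries, with 0.0425 and 0.365 in TDG KD, 0.243 and -0.0299 in the siRNA control, and 0.358 and 0.363 in WT. Tcf7l1, the main TCF repressor of ES cells, had 0.0195 and 0.16 in TDG KD, 0.186 and 0.0711 in the siRNA control, and 0.518 and 0.237 in WT. Lef1 had 0.118 and 0.287 in TDG KD, 0.114 and 0.00392 in the siRNA control, and 0.462 and 0.0526 in WT. None of the 58 was called by limma in either comparison.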

How the data were processed

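5fC was measured by chemical pulldown and sequencing in TDG KD, siRNA control and WT J1 ES cells, 2 libraries each. The authors mapped reads onto mm9 using BWA, for which the submitters' processing notes give 0.6.1, retained unique placements (mapping quality of at least 15) and called domains in each library with rseg against 1 input library in bins of 100 bp. The deposited value used is a score without a label. It was taken as the mean pulldown minus input reads per bin of a domain, not scaled for depth. A second deposited score, which grows with domain width, was not used. Depth per library came from the study's table of runs and was 20.4 to 45.9 M reads. Reads per region were not used, so precision rests on 2 replicates and no counting interval is given.

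From the domains, length-weighted means over TSS windows and gene bodies (at least 500 bp) were computed with Python 3.11.15, NumPy 2.4.6 and pandas 2.3.3, and sequence was read with pysam 0.24.0. Genes without a value in all 6 libraries, 254 at the TSS and 2836 in the gene body, were left out of the counts over all genes. A CGI was a 500 bp stretch whose GC content reached 55% and whose CpG ratio reached 0.65. Conditions were compared with limma 3.58.1 in R 4.3.3, two-sided, with Benjamini-Hochberg adjustment over all genes. The scripts were tested on simulated data. Members, lists, named genes and tests were chosen with earlier results of these data known. Named genes were Lrp5, Lrp6, Axin1, Axin2, members enriched in all libraries or in none, the extremes of TDG KD minus control among members of 1 sign in both prefixes, the extremes of TSS minus gene body, and members that share a domain. Fzd3, Fzd5, Wnt2b, Sfrp1 and Dkk4 were added after their values were seen. Alternatives were other thresholds, another TSS, values not centred or ranked, the library name prefix as a block and leaving out each library. Expression was not analysed here.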

Additional observations from a re-analysis of the deposited data

How the results depend on the processing

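With unconfident sequence counted as enriched, the members enriched in both TDG KD replicates came to 32 at the TSS and 27 in the gene body. In TDG KD replicate 1, 34% of the TSS windows and 35.8% of the gene bodies of all genes were mostly unconfident. Leaving out 1 TDG KD library gave 12 to 35 at the TSS and 11 to 30 in the gene body. With all of the window required, WT had 15 enriched members at the TSS, and with the 25% of enriched domains of lowest value dropped it had 14 in the gene body. All other settings kept these 6 counts within 1.5 times. The counts of 32, 27, 15 and 14 have no share of all genes under the same setting beside them, so they do not bear on the background. For TDG KD minus siRNA control, limma called 4 genes in each region on values not centred on the library mean, and 0 to 1966 at the TSS and 0 to 1274 in the gene body when 1 library was left out. For siRNA control minus WT it called 22 in the gene body without centring, and 7 to 11378 at the TSS and 0 to 7219 in the gene body when 1 library was left out. In ranks, the median of TSS minus gene body over the members was -2.29 percentiles in TDG KD and -0.181 in the siRNA control, where it was 0 in excess. The cause of these changes was not tested. The labels give no replicate numbers, but the name prefixes pair TDG KD with siRNA control libraries, and with the prefix as a block limma called 0 genes in either region (310 at the TSS and 97 in the gene body at an unadjusted p under 0.05). A CpG island by a looser rule (200 bp) was found in all 41 members. Domain values average over widths that differ between libraries, and 2 replicates limit every comparison.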
